A study of Mus musculus with 50 samples.

Results

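The genes described here were 4 alpha-arrestins named as such (Arrdc1, Arrdc2, Arrdc3 and Arrdc4), their relative Txnip, and the beta-arrestins Arrb1 and Arrb2. They were taken by symbol, 7 of the 55401 gene rows in the table of perigonadal white adipose tissue (pgWAT) at 6 h, and were found by gene identifier in the 2 other tables of 55414 gene rows each. The family was selected on its measured differences between genotypes in these libraries, that is, on the TG over WT log2 changes in counts, so the values of its genes between genotypes are given as a description, with no p-value. Where a member is said to have passed a threshold between genotypes, this states its place in a fit across all genes and is no test of the choice. Gene counts came from 3′ mRNA sequencing of 50 libraries, a method that reads the 3′ end of polyadenylated RNA. All libraries were from male mice carrying hM3DGq, an engineered receptor that lets clozapine N-oxide (CNO) excite the neurons that hold it, and the labels give CNO at 1 mg/kg for every group.

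Animals that were Cre-positive under Gfral, the receptor of the hormone GDF15 known mainly from hindbrain neurons, are called TG, and Cre-negative animals with hM3DGq are called WT. The groups were quadriceps of clamped mice (10 TG, 10 WT), pgWAT collected 1 h after CNO (9 TG, 9 WT) and pgWAT collected 6 h after CNO (6 TG, 6 WT). No group without CNO was analysed, and each comparison therefore sets CNO-treated TG against CNO-treated WT. The study asked how activation of these neurons changes expression in a tissue with lowered glucose uptake (quadriceps) and in one with raised glucose uptake (pgWAT). The labels give a clamp for the quadriceps samples alone, so tissue and clamp coincide.

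Arrestins are adaptor proteins that bind membrane cargo and bring it to the endocytic machinery. Beta-arrestins bind activated G protein-coupled receptors that carry phosphate groups and end their coupling to G proteins. Alpha-arrestins carry PPxY motifs that recruit ubiquitin ligases of the NEDD4 family to membrane proteins. TXNIP has an arrestin fold too, binds thioredoxin, and promotes endocytosis of the glucose transporters GLUT1 and GLUT4. Its gene and that of Arrdc4 are known targets of the glucose-sensing factors MondoA (Mlxip) and ChREBP (Mlxipl), while Txnip is also known to respond to glucocorticoids and FOXO factors.

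Quadriceps libraries held 959980 to 2613672 gene counts, pgWAT libraries of the 1 h set 976610 to 4852560 and those of the 6 h set 9150496 to 12883462, so genes of low level were measured far more precisely in the 6 h set. The adipocyte marker sum was 27289 to 34994 CPM (counts over the TMM-scaled library total) in TG pgWAT and 28103 to 37196 CPM in WT pgWAT at 6 h, and the muscle fibre marker sum was 40259 to 47083 CPM in TG quadriceps and 32017 to 56537 CPM in WT quadriceps, as the tissue labels say. Some libraries stood apart, with a summed level of liver, duct epithelium or inducible heat shock transcripts above 5 times the median of their set. These were 1 TG and 2 WT libraries in quadriceps, 3 TG and 6 WT libraries in pgWAT at 1 h, and 1 TG library in pgWAT at 6 h. The TG quadriceps library (replicate 7) passed this limit only by a liver sum near the floor, 3.91 CPM before TMM scaling, 5.29 times the median. In bulk tissue, fewer cells of a type and less RNA per cell cannot be told apart.

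The promoters of the members whose levels the results turn on are shown first, from the RefSeq table on GRCm38.p6, which held 5 of the 7 members (not Arrb1 and Arrb2). Each window runs from 250 bases before to 50 bases from the start site on, and positions are counted from the start site as 0. Capitals mark matches, on either strand, to the E-box CACGTG, a pair of E-box-like repeats (CACGNG, any 5 bases, CACGNG), a glucocorticoid response element (GNACA, any 3 bases, TGTNC), a FOXO motif GTAAACA, the cAMP response element TGACGTCA or the CCAAT box (CCAAT). No 2 marked matches overlap. Arrdc2 (chr8:70839671-70839970, minus strand) and Arrdc3 (chr13:80883134-80883433, plus strand, the first of 3 starts in the table) are shown because their levels separated TG from WT in pgWAT at 6 h, and Arrdc4 (chr7:68749189-68749488, minus strand) and Txnip (chr3:96557707-96558006, plus strand) because both are known glucose-regulated genes.
Arrdc2: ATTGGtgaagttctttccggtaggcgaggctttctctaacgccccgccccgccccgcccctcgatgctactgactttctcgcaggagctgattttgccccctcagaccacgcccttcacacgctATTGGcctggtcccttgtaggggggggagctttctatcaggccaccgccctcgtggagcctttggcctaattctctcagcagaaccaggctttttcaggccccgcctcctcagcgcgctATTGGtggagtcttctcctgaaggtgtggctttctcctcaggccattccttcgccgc
Arrdc3: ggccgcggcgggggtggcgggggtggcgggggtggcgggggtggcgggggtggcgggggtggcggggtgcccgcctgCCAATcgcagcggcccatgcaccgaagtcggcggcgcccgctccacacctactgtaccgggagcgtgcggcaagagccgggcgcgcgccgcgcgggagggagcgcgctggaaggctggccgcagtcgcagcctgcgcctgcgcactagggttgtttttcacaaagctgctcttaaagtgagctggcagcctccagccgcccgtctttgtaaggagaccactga
Arrdc4: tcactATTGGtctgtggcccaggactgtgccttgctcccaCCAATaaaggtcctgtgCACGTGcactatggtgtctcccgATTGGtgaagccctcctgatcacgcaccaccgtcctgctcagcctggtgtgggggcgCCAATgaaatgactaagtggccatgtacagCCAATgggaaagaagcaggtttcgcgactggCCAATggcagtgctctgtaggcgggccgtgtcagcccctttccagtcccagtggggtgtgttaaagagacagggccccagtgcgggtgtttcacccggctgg
Txnip: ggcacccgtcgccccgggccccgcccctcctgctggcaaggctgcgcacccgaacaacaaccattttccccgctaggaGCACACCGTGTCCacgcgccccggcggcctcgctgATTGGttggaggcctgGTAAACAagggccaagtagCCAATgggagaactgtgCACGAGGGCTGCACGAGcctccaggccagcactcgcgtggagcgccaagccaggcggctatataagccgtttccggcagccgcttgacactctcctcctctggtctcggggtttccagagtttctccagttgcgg

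The Txnip window held the most kinds of motif. Its paired repeat lay at -85 to -69, near the start, where the human gene is known to carry its carbohydrate response element, and 0.0487% of the 32851 promoters in the table hold such a pair. Txnip also held a glucocorticoid response element at -172 to -160, found in 0.475% of promoters, and a FOXO motif at -121 to -115, found in 3.65%. The Arrdc4 window held an E-box at -193 to -188, found in 7.15% of promoters, and 6 CCAAT boxes. The Arrdc2 window held 3 CCAAT boxes and that of Arrdc3 held 1, and 37.4% of promoters hold at least 1. The Arrdc1 window (chr2:24935232-24935531, minus strand) held no match, and no member window held the cAMP element, which 1.79% of promoters hold. The repeat pattern was set after the sequences had been seen. A match describes these letters and does not show binding.

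In pgWAT at 6 h, Arrdc2 and Arrdc3 were higher in TG than in WT in every library, Txnip was modestly higher, and the other members did not pass the threshold of an adjusted p under 0.05 (edgeR quasi-likelihood test, adjusted over all genes). Here 14.4% of all 14359 genes tested passed it, 6.88% as higher in TG, against 3 of the 7 members, all of them higher. In quadriceps 2.03% of genes passed and 0 of the 4 members tested did. In pgWAT at 1 h 0.0722% of genes passed and 0 of the 6 members tested did. The unadjusted p was under 0.05 for 1 member in quadriceps (Arrdc3) and for 0 members at 1 h, and by DESeq2 0 members were called in either set. The median log2 change over the members tested was 0.19 for quadriceps (all genes tested, -0.003), 0.04 for the 1 h set (all genes, 0.01) and 0.13 for the 6 h set (all genes, 0.002). The members were picked with these contrasts in view, and nothing is read from their share.

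**Figure D1:**
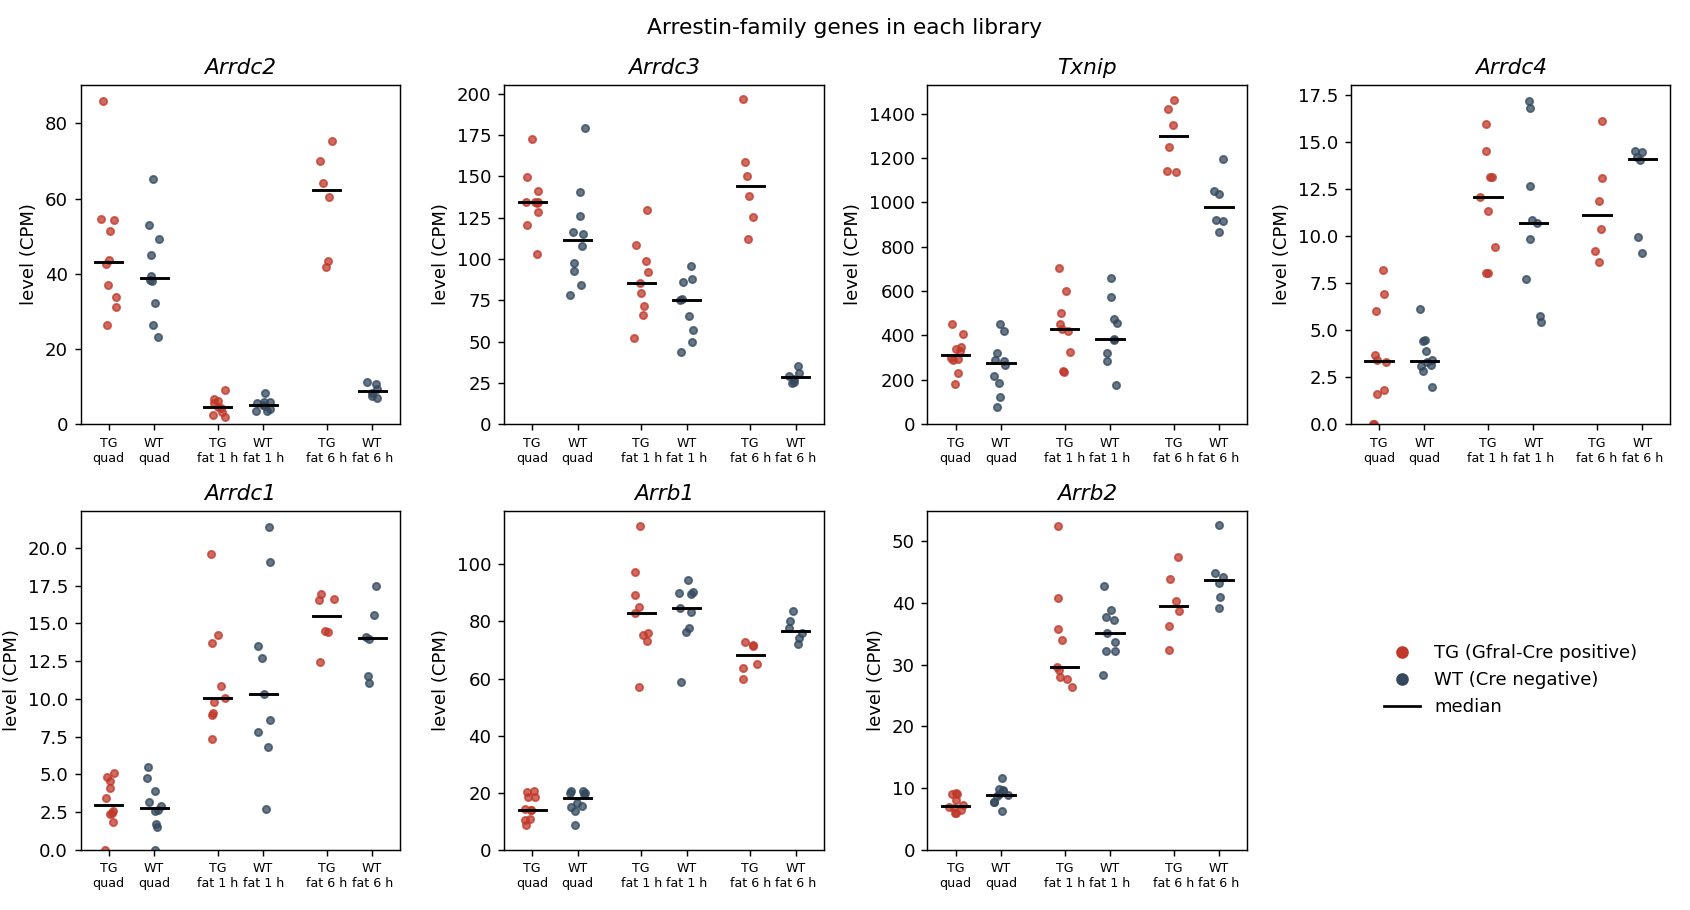
Level of each of the 7 genes in every library, in CPM after TMM scaling (y axis, linear, from 0), by group (x axis), with TG points to the left of WT points and the group median as a bar. In pgWAT at 6 h (fat 6 h) all TG points of Arrdc2 and Arrdc3 lie above all WT points, while the other genes overlap. The 3 pairs of groups were scaled separately and differ in kit.

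Arrdc2 (GRCm38 chromosome 8, 70835129 to 70839720, minus strand) is an alpha-arrestin that in mouse muscle is known as a gene raised by glucocorticoids and by fasting. In pgWAT at 6 h its level was 41.7 CPM in the lowest, 62.2 CPM in the median and 75.2 CPM in the highest TG library. In WT libraries it was 6.95, 8.73 and 11.1 CPM. The groups did not overlap, and the lowest TG library was 3.77 times the highest WT library. Of all genes tested in this set, 3.93% had every TG library above every WT library. The log2 change was 2.73 (SE 0.17, 95% interval 2.37 to 3.09), a 6.63-fold difference.

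In pgWAT at 1 h Arrdc2 had too few counts to be tested, with 2 to 28 counts in TG libraries and 5 to 18 counts in WT libraries. The levels were 1.79 to 9.12 CPM (median 4.60) in TG and 3.34 to 8.23 CPM (median 5.17) in WT, and the groups overlapped widely. Without the filter on low counts its log2 change at 1 h was -0.07 (SE 0.29). In quadriceps Arrdc2 had 26.4 to 86.0 CPM (median 43.01) in TG and 23.1 to 65.3 CPM (median 38.9) in WT. The log2 change there was 0.12 (SE 0.20, 95% interval -0.29 to 0.53), with wide overlap. TG replicate 3 held the highest quadriceps value, and without it the log2 change was -0.03.

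Arrdc3 (chromosome 13, 80883384 to 80896042, plus strand) is an alpha-arrestin that binds beta-adrenergic receptors in cultured human cells, and its loss in mice raises energy expenditure and resistance to obesity. Its level in pgWAT at 6 h was 112 CPM in the lowest, 144 CPM in the median and 197 CPM in the highest TG library. WT libraries had 24.6, 28.2 and 34.96 CPM. No library of one genotype lay inside the range of the other, and the lowest TG value was 3.21 times the highest WT value. The log2 change was 2.35 (SE 0.13, 95% interval 2.08 to 2.63), a 5.11-fold difference.

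Outside pgWAT at 6 h, Arrdc3 had positive log2 changes that did not pass the threshold. Its range in pgWAT at 1 h was 52.1 to 130 CPM (median 85.5) in TG and 43.8 to 95.7 CPM (median 75.1) in WT. There 3 of 9 TG libraries lay above the highest WT library, and the log2 change was 0.31 (SE 0.17, 95% interval -0.04 to 0.65). In quadriceps it had 103 to 173 CPM (median 135) in TG and 77.9 to 179 CPM (median 112) in WT. There 9 of 10 TG libraries lay above the WT median although the ranges overlapped, and the log2 change was 0.25 (SE 0.11, 95% interval 0.02 to 0.49). Leaving out single quadriceps libraries gave 0.21 to 0.35 and no call.

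Txnip (chromosome 3, 96557957 to 96561883, plus strand) had 1138 CPM in the lowest, 1298 CPM in the median and 1460 CPM in the highest TG library in pgWAT at 6 h. WT libraries had 867, 979 and 1197 CPM. Of the 6 TG libraries 4 lay above the highest WT library, all 6 lay above the WT median, and 1 WT library lay above the lowest TG library. The log2 change was 0.37 (SE 0.09, 95% interval 0.19 to 0.56), a 1.30-fold difference.

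At 1 h in pgWAT, Txnip had 234 to 704 CPM (median 427) in TG and 176 to 660 CPM (median 382) in WT, with a log2 change of 0.08 (SE 0.24, 95% interval -0.42 to 0.58). In quadriceps it had 181 to 450 CPM (median 313) in TG and 77.04 to 453 CPM (median 276) in WT, with a log2 change of 0.25 (SE 0.25, 95% interval -0.27 to 0.78). Both pairs of groups overlapped over most of their range. The intervals at 1 h and in quadriceps include a change as large as that at 6 h, so a difference of that size is not excluded in either set. The annotated antisense gene Gm15441 covers the whole of Txnip. Over all libraries it drew 3 counts from quadriceps, 6 from the 1 h set and 110 from the 6 h set. Txnip drew 86600 counts over the TG and 66928 over the WT libraries at 6 h, so few counts of this pair went to the antisense gene. The strand setting of the counting is not given in the sources used here. Annotated genes on the other strand within Arrdc3 and Arrb1 drew at most 11 counts in any set.

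Arrdc4 (chromosome 7, 68736995 to 68749241, minus strand), which like Txnip is known to reduce glucose uptake in cultured cells when raised, did not pass the threshold in either pgWAT set. At 6 h in pgWAT it had 8.61 to 16.1 CPM (median 11.1) in TG and 9.12 to 14.5 CPM (median 14.1) in WT. The TG range enclosed the WT range, and the log2 change was -0.15 (SE 0.17, 95% interval -0.50 to 0.20). Its level in pgWAT at 1 h was 8.05 to 16.0 CPM (median 12.1) in TG and 5.42 to 17.2 CPM (median 10.7) in WT, with a log2 change of 0.11 (SE 0.22, 95% interval -0.34 to 0.56). Without the libraries that stood apart, which leaves 6 TG and 3 WT at 1 h, the log2 change was -0.39 and not called. In quadriceps its counts were 0 to 10 in TG and 2 to 9 in WT, and it was not tested.

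Arrdc1 (chromosome 2, 24925352 to 24935252, minus strand) recruits the ESCRT protein TSG101 and drives budding of vesicles from the plasma membrane. At 6 h in pgWAT it had 12.4 to 16.9 CPM (median 15.5) in TG and 11.03 to 17.5 CPM (median 14.02) in WT. All TG values lay inside the WT range, and the log2 change was 0.13 (SE 0.12, 95% interval -0.14 to 0.39). At 1 h it had 7.35 to 19.6 CPM (median 10.1) in TG and 2.71 to 21.4 CPM (median 10.3) in WT, with a log2 change of -0.03 (SE 0.27, 95% interval -0.59 to 0.54). In quadriceps it had 0 to 6 counts in TG and 0 to 5 in WT and was not tested.

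The beta-arrestin genes did not pass the threshold in any set in which they were tested, and both had a negative log2 change in pgWAT at 6 h. Arrb1 (chromosome 7, 99535466 to 99606771, plus strand) had 59.9 to 72.96 CPM (median 68.2) in TG and 72.0 to 83.6 CPM (median 76.7) in WT. Of the 6 TG libraries 5 lay below the lowest WT library, and the log2 change was -0.20 (SE 0.06, 95% interval -0.33 to -0.06). Arrb1 passed the threshold by DESeq2 and with scaling by library size alone, at -0.20 and -0.26, and in 2 of the 12 fits that left out 1 library (TG replicate 1 or 3). Arrb2 (chromosome 11, 70432635 to 70440828, plus strand) had 32.3 to 47.4 CPM (median 39.5) in TG and 39.1 to 52.6 CPM (median 43.7) in WT, with a log2 change of -0.15 (SE 0.09, 95% interval -0.35 to 0.05).

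Arrb1 at 1 h in pgWAT had 57.1 to 114 CPM (median 82.95) in TG and 58.7 to 94.5 CPM (median 84.6) in WT, with a log2 change of 0.01 (SE 0.11, 95% interval -0.22 to 0.24). Arrb2 had 26.4 to 52.5 CPM (median 29.7) in TG and 28.3 to 42.8 CPM (median 35.1) in WT, with a log2 change of -0.06 (SE 0.13, 95% interval -0.33 to 0.20). Neither gene separated the genotypes. In quadriceps Arrb1 had 8.51 to 20.5 CPM (median 14.1) in TG and 8.59 to 20.7 CPM (median 18.0) in WT, from 10 to 25 and 10 to 60 counts, with a log2 change of -0.21 (SE 0.17, 95% interval -0.56 to 0.14). Arrb2 had 7 to 11 counts in TG and 6 to 26 counts in WT quadriceps and was not tested.

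**Figure D2:**
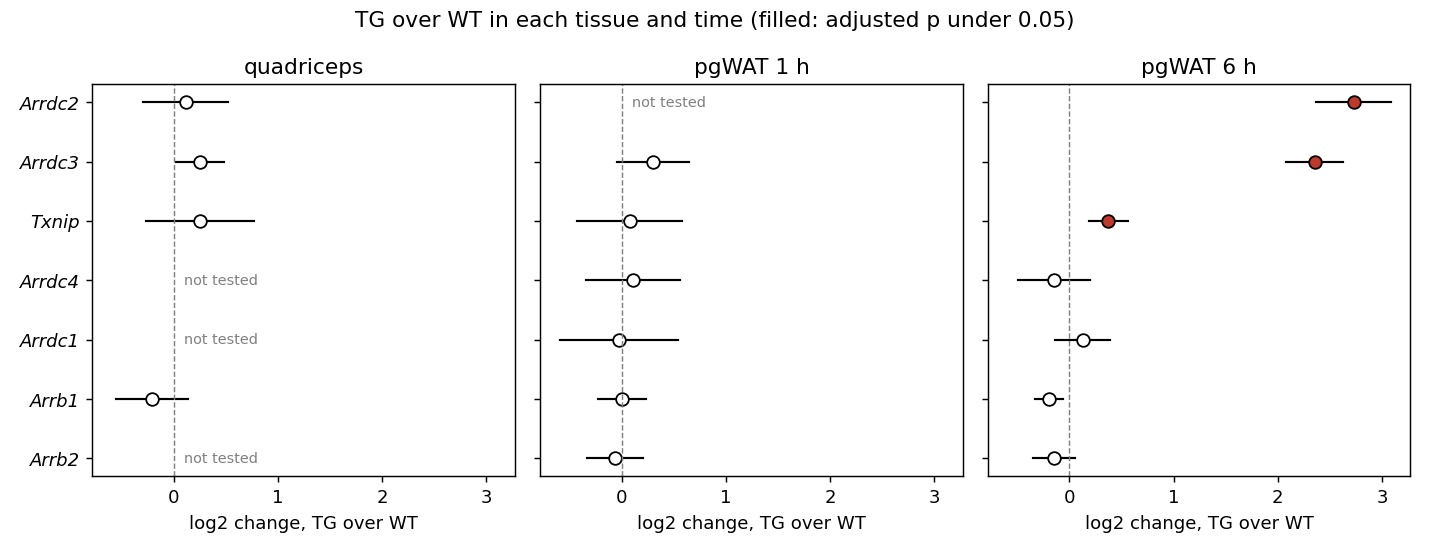
Log2 change of TG over WT (x axis) for each gene (y axis) in the quadriceps, 1 h and 6 h sets, with 95% intervals. Filled points passed an adjusted p under 0.05 and open points did not. Arrdc2 at 2.73 and Arrdc3 at 2.35 stand far from 0 in pgWAT at 6 h, Txnip at 0.37 is the third filled point, and all points in the other 2 panels are open.

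Markers of other cell types were compared beside the 6 h values. The sum of the 6 muscle fibre markers was 61.7 to 120 CPM in TG and 22.6 to 50.6 CPM in WT pgWAT at 6 h and did not overlap. Of the 2 markers tested 1 was called, Acta1, which averaged 81.8 CPM in TG and 34.2 CPM in WT (log2 change 1.26). Acta1 made up most of the sum, whose median was 81.6 CPM in TG and 36.0 CPM in WT. The median log2 change of the 2 tested markers was 0.59, so the sum describes Acta1 rather than the list. The macrophage sum was 903 to 1763 CPM in TG and 892 to 1323 CPM in WT, the endothelial sum 531 to 869 CPM in TG and 540 to 701 CPM in WT, and both overlapped. Of the 5 adipocyte markers 1 was called, Cidec, at 3732 CPM in TG and 2875 CPM in WT. The inducible heat shock sum was 52.2 to 86.9 CPM in TG and 36.8 to 55.6 CPM in WT, but its genes did not move together: Dnajb1 was at 50.4 CPM in TG and 29.4 CPM in WT (log2 change 0.78, edgeR adjusted p 0.00159), Hspa1b at 6.74 CPM in TG and 9.80 CPM in WT (-0.53, edgeR adjusted p 0.0120), and the list median was -0.09. The mesothelial sum was 62.5 to 253 CPM in TG and 104 to 212 CPM in WT, with 1 of 5 markers called, Wt1, at 11.5 CPM in TG and 18.7 CPM in WT (-0.70, edgeR adjusted p 0.0258). The fibroblast, erythroid and duct epithelium sums overlapped between genotypes. The lymphocyte sum was 0.563 to 4.39 CPM in TG and 3.48 to 19.9 CPM in WT. The liver sum reached 1462 CPM in 1 TG library (replicate 2), and without that library the log2 changes were 2.68 for Arrdc2, 2.35 for Arrdc3 and 0.34 for Txnip, all still called. The part of the remaining marker differences in these results was not tested.

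The genotype difference in one set was also set against that in another in joint fits, as a description. From 1 h to 6 h in pgWAT the log2 difference grew by 2.76 for Arrdc2 (SE 0.30, 95% interval 2.16 to 3.37) and by 2.05 for Arrdc3 (SE 0.23, 95% interval 1.57 to 2.53). These 2 of the 7 members passed the threshold, as did 4.21% of 13022 genes, and since the choice used both genotype contrasts nothing is read from it. Arrdc2 passed the filter on low counts only through pgWAT at 6 h, where it is high. Txnip was at 0.30 (95% interval -0.33 to 0.92) and Arrb1 at -0.20 (95% interval -0.49 to 0.09). Time coincides with library kit in pgWAT, and the 2 cannot be told apart as sources of a difference between these sets.

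The genotype difference in quadriceps minus that in pgWAT at 6 h was -2.59 for Arrdc2 (SE 0.28, 95% interval -3.16 to -2.03) and -2.08 for Arrdc3 (SE 0.18, 95% interval -2.45 to -1.71). Here too 2 of the 7 members passed, beside 5.06% of 10729 genes, and nothing is read from this count. Txnip differed by -0.10 with a 95% interval of -0.75 to 0.55, which covers both no difference and one larger than its whole change at 6 h. Both of these differences use the same pgWAT libraries at 6 h and are not independent of each other.

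Between tissues in WT mice, a contrast that the choice of genes did not use, the 2 alpha-arrestins Arrdc2 and Arrdc3 were higher and the beta-arrestins were lower in quadriceps than in pgWAT at 1 h. Both sets were made with the same kit. Arrdc2 averaged 41.0 ± 12.7 CPM in WT quadriceps (SD, n = 10) and 5.13 ± 1.53 CPM in WT pgWAT at 1 h (SD, n = 9), each scaled within its own set. In a joint edgeR fit its log2 difference was 3.73 (SE 0.19), and every quadriceps library lay above every pgWAT library at 1 h. Arrdc2 passed the filter on low counts only through quadriceps, where it is high, and Arrb2 only through pgWAT, so the values of both are a description with no p-value. Arrb2 was at -1.27 (SE 0.13). For Arrdc3 the log2 difference was 1.41 (SE 0.16, edgeR adjusted p 8.83e-09), 2.66-fold, and for Arrb1 -1.55 (SE 0.13, edgeR adjusted p 9.77e-12). Txnip did not pass (0.09, SE 0.29, edgeR adjusted p 0.788), with a 95% interval of -0.52 to 0.69.

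Of all genes tested between these tissues, 80.8% passed, so a call for Arrdc3 or Arrb1 is what most genes show. Arrdc1 and Arrdc4, with few counts in quadriceps, did not pass the filter. Fitted without it, both were lower in quadriceps, unlike Arrdc2 and Arrdc3, at log2 differences of -1.24 (SE 0.35) and -0.74 (SE 0.27). Scaling by library size alone shifted the median log2 difference of all genes by -0.76. Under it Arrdc3 was at 0.64 and Arrb1 at -2.31, both past the threshold, and Txnip turned to -0.67 and was called (edgeR adjusted p 0.0364). Arrdc2 was at 2.97 and Arrb2 at -2.03, again as a description only. The tissue difference is given for clamped quadriceps against pgWAT labelled with no clamp, and tissue and clamp cannot be told apart.

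**Figure D3:**
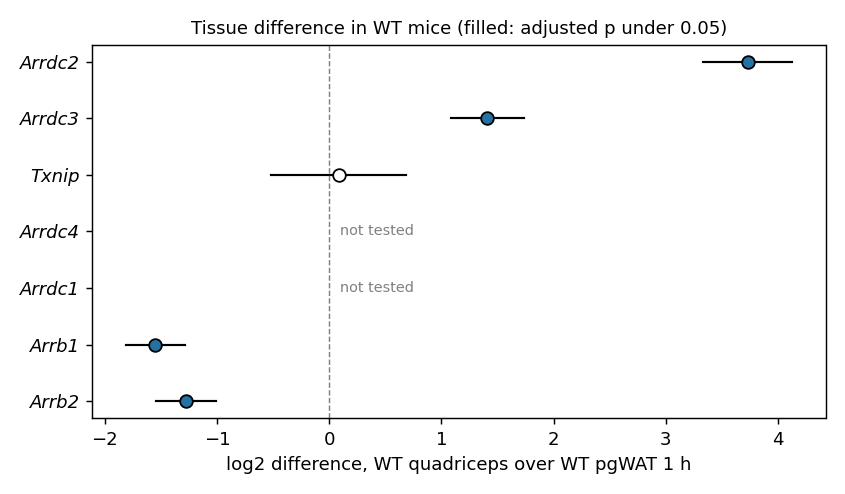
Log2 difference of WT quadriceps over WT pgWAT at 1 h (x axis) for each gene (y axis) with 95% intervals, from 10 quadriceps and 9 pgWAT libraries. Filled points passed an adjusted p under 0.05, though Arrdc2 and Arrb2 passed the filter on low counts through 1 tissue each. Arrdc2 at 3.73 and Arrdc3 at 1.41 lie to the right, Arrb1 at -1.55 and Arrb2 at -1.27 to the left, and Txnip near 0 is open.

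The order of the group means shows where each gene was highest, with sets scaled separately and the 6 h libraries made with another kit. For Arrdc2, TG pgWAT at 6 h (59.1 ± 13.8 CPM) came first, followed by TG quadriceps (46.04 ± 17.1 CPM) and WT quadriceps (41.0 ± 12.7 CPM), whose ranges overlapped one another. A gap without overlap followed, and then came WT pgWAT at 6 h (8.90 ± 1.70 CPM), WT pgWAT at 1 h (5.13 ± 1.53 CPM) and TG pgWAT at 1 h (4.85 ± 2.30 CPM). For Arrdc3, TG pgWAT at 6 h was first as well (147 ± 29.6 CPM) and the order ran on without a gap through TG quadriceps (135 ± 18.1 CPM), WT quadriceps (114 ± 30.0035 CPM), TG pgWAT at 1 h (87.0 ± 23.4 CPM) and WT pgWAT at 1 h (70.8 ± 18.0 CPM). WT pgWAT at 6 h stood apart below all of these (28.8 ± 3.87 CPM), its ranges not overlapping those of WT pgWAT at 1 h.

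For Txnip, TG pgWAT at 6 h (1293 ± 138 CPM) and WT pgWAT at 6 h (998 ± 122 CPM) came first and did not overlap the rest. The other 4 groups overlapped their neighbours, at 434 ± 157 CPM in TG and 412 ± 148 CPM in WT pgWAT at 1 h and at 316 ± 78.03 CPM in TG and 263 ± 119 CPM in WT quadriceps. Arrb1 was at 83.2 ± 16.1 CPM in TG and 82.8 ± 10.8 CPM in WT pgWAT at 1 h. It was at 67.4 ± 5.33 CPM in TG and 77.2 ± 4.195 CPM in WT pgWAT at 6 h, and after a gap at 14.9 ± 4.30 CPM in TG and 16.98 ± 3.91 CPM in WT quadriceps. Arrb2 had the same gap between its 4 pgWAT groups and quadriceps, at 7.46 ± 1.27 CPM in TG and 8.90 ± 1.47 CPM in WT quadriceps. For Arrdc1 and Arrdc4, quadriceps groups were lowest and each neighbour in the order overlapped the next.

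Among libraries of the same group, pooled over the groups, Arrdc3 and Txnip varied together. Over all 50 libraries, with the mean of each set and genotype removed from log2 CPM, Pearson's r was 0.50 and Spearman's rho was 0.46. Of the 3 pairs among the members tested in all 3 sets, this one passed (permutation p 0.00158, adjusted 0.00474; for rho 0.0025 and 0.0075). Without the 2 libraries farthest from the median of Arrdc3, r was 0.40. Taken set by set, with both genotypes together, r was 0.40 for quadriceps, 0.64 for the 1 h set and 0.42 for the 6 h set. At 6 h the TG libraries carried this rise and the WT libraries did not show it. There WT replicate 4, the highest WT library in Arrdc3 at 0.29 from its group mean, was at -0.11 for Txnip. When the libraries that stood apart were left out, r fell to 0.34 over the remaining libraries and the pair no longer passed (permutation test, adjusted p 0.170). Neither gene varied with Arrb1 past the threshold, at r -0.20 for Arrdc3 (permutation p 0.173, adjusted 0.259) and -0.14 for Txnip (permutation p 0.404, adjusted 0.404).

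**Figure D4:**
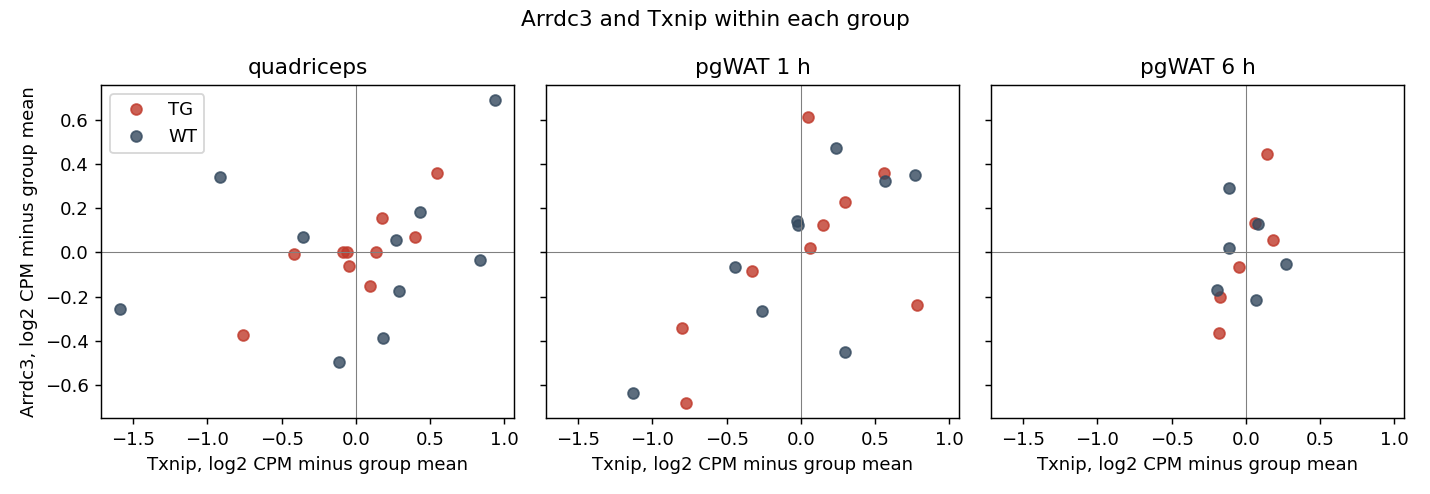
Arrdc3 (y axis) against Txnip (x axis) in each library, both as log2 CPM minus the mean of the library's own group, in the quadriceps, 1 h and 6 h sets, with TG in red and WT in grey-blue. With both genotypes together, points rise to the right in each panel, with r of 0.40, 0.64 and 0.42, and Txnip spreads least at 6 h. At 6 h the TG points rise and the WT points do not.

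The genes that followed Arrdc3 and Txnip most closely from library to library were looked up in the same centred values, among 7399 genes tested in all 3 sets. For Arrdc3 these were Fam214a (r 0.66), Glud1 (r 0.65), the mitochondrial glutamate dehydrogenase, and Pcmtd2 (r 0.62), and Txnip ranked 21. Fam214a had r of 0.68 for quadriceps, 0.69 for the 1 h set and 0.58 for the 6 h set, and was itself higher in TG pgWAT at 6 h, with a log2 change of 1.79. In the 6 h set r was only 0.28 for Glud1, against 0.55 for Pcmtd2. Glud1 and Pcmtd2 were not called in any set. For Txnip they were Igf2r (r 0.86), the receptor for IGF2 and lysosomal enzymes, Msrb3 (r 0.83), a methionine sulfoxide reductase, and Eif4a2 (r 0.82), an RNA helicase of translation initiation. Arrdc3 ranked 567 for Txnip. In pgWAT at 6 h the likeness to Txnip was only 0.31 for Igf2r and 0.35 for Msrb3, against 0.71 for Eif4a2. Igf2r was lower in TG there, with a log2 change of -0.28. All points share depth and library preparation within a set, and no p-value is given for ranked genes.

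The partners and regulators of arrestins were taken from 8 lists of 73 genes, chosen with earlier results of these data known. In quadriceps 3 of 61 genes tested were higher and 1 was lower in TG, in pgWAT at 1 h 1 of 66 was higher and 0 were lower, and in pgWAT at 6 h 18 of 69 were higher and 7 lower. Of all genes tested 2.03%, 0.0722% and 14.4% passed in the quadriceps, 1 h and 6 h sets, 6.88% as higher at 6 h.

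Among the beta-adrenergic receptor genes, Adrb3 and Adrb1 were both lower in TG pgWAT at 6 h. Adrb3, the main beta receptor of mouse fat cells, fell to 147 ± 53.999 CPM in TG, against 672 ± 245 CPM in WT (log2 change -2.20, SE 0.32, edgeR adjusted p 0.000992; SD, n = 6 each), with no overlap. Adrb1 was at 11.6 ± 3.01 CPM in TG and 18.0 ± 2.21 CPM in WT (-0.63, SE 0.15, edgeR adjusted p 0.00836). At 1 h neither of these receptor genes passed by edgeR or DESeq2, with 0 at an unadjusted p under 0.05, and in quadriceps neither had enough counts to be tested. Of the 5 receptor kinases, which add the phosphate that beta-arrestins bind, Grk5 fell in pgWAT at 6 h (-0.38, SE 0.08, edgeR adjusted p 0.00376) and the other 4 did not pass. None of those tested passed in quadriceps or at 1 h, where the unadjusted p was under 0.05 for 1 of 2 and 0 of 5, and 0 passed by DESeq2.

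Among NEDD4-family ligases, which alpha-arrestins recruit, 1 of 8 tested rose and 1 fell in pgWAT at 6 h. Hecw2 was at 10.9 ± 1.69 CPM in TG and 5.53 ± 0.781 CPM in WT (log2 change 0.97, SE 0.14, edgeR adjusted p 0.000149). Smurf1 was at -0.41 (SE 0.13, edgeR adjusted p 0.0431) and kept its call in 3 of the 12 fits that left out 1 library. It lost the call without TG replicates 1, 2, 4 or 5 or WT replicates 2, 3, 4, 5 or 6 (edgeR adjusted p 0.0159 to 0.101 over the 12). Of the 6 alternative settings 4 kept the call, and the fit without the filter on low counts did not. The list's median was 0.08. Of 16 clathrin, AP2 and ESCRT genes 1 rose at 6 h, the AP2 subunit Ap2a2 (0.29, SE 0.08, edgeR adjusted p 0.0174), a share close to the 6.88% of all genes, with a list median of 0.03. Ap2a2 was not called with scaling by library size alone (adjusted p 0.0816). Of 5 other genes with an arrestin fold that were tested, the retromer subunit Vps26a rose (0.31, SE 0.06, edgeR adjusted p 0.00126).

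The glucose-sensing pair moved in opposite directions in pgWAT at 6 h. Mlxip rose to 42.9 ± 3.35 CPM in TG, against 21.1 ± 3.83 CPM in WT (log2 change 1.03, SE 0.11, edgeR adjusted p 3.14e-06). Mlxipl fell to 35.7 ± 4.03 CPM in TG, against 54.7 ± 11.1 CPM in WT (-0.62, SE 0.12, edgeR adjusted p 0.00159). The transporter gene Slc2a1 (GLUT1) rose by 0.45 (SE 0.13, edgeR adjusted p 0.0326) and kept its call in 6 of 12 such fits. It lost the call without TG replicates 2, 5 or 6 or WT replicates 2, 3 or 5 (edgeR adjusted p 0.0185 to 0.0790 over the 12). Of the 6 alternative settings only 3 kept the call, and scaling by library size alone did not (edgeR adjusted p 0.0961). The list of thioredoxin and peroxiredoxin genes holds those of thioredoxin, which TXNIP binds. Of its genes 0 of 11 passed at 6 h by edgeR or DESeq2, 1 had an unadjusted p under 0.05, and the list median was 0.03. In quadriceps and in pgWAT at 1 h 0 of the 6 glucose genes passed by edgeR or DESeq2, with 0 at an unadjusted p under 0.05 in each.

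Of 15 glucocorticoid and FOXO factors and induced genes, 12 rose and 2 fell in pgWAT at 6 h, and the list median was a log2 change of 1.00. The smallest p-values belonged to Fkbp5, the glucocorticoid-induced chaperone of steroid receptors, at 432 ± 52.7 CPM in TG and 51.1 ± 12.3 CPM in WT (3.08, SE 0.14, edgeR adjusted p 3.97e-09). Tsc22d3 followed at 1.68 (SE 0.13, edgeR adjusted p 5.90e-07) and Zbtb16 at 1.69 (SE 0.15, edgeR adjusted p 4.35e-06). The 2 that fell were Nr3c1, the glucocorticoid receptor gene, and Irs2. Nr3c1 was at -0.616 (SE 0.07, edgeR adjusted p 1.89e-05) and Irs2 at -0.996 (SE 0.14, edgeR adjusted p 0.000261). For both, every TG library lay below every WT library. Both fall outside the naming rule and were named after their values were seen. In the same libraries the log2 change was 2.73 for Arrdc2, 2.35 for Arrdc3 and 0.37 for Txnip. A link between the genes of this list and these members was not tested.

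In quadriceps 3 of 15 genes of the same list rose and 1 fell. Sgk1 was at 513 ± 57.0 CPM in TG and 384 ± 23.2 CPM in WT (log2 change 0.42, SE 0.06, edgeR adjusted p 3.99e-05) and Ddit4 at 608 ± 55.9 CPM in TG and 433 ± 92.3 CPM in WT (0.49, SE 0.10, edgeR adjusted p 0.00395). The third that rose was Errfi1 (0.46, SE 0.11, edgeR adjusted p 0.0184), which falls outside the naming rule and was named after its values were seen. Tsc22d3 was lower, at 725 ± 81.04 CPM in TG and 873 ± 61.1 CPM in WT (-0.27, SE 0.06, edgeR adjusted p 0.0158), and was not called without the libraries that stood apart (adjusted p 0.0518). In pgWAT at 1 h Ddit4 alone of 14 passed, at 204 ± 39.1 CPM in TG and 110 ± 22.5 CPM in WT (0.89, SE 0.12, edgeR adjusted p 0.00103). Without the libraries that stood apart, which leaves 6 TG and 3 WT, it was at 0.91 and not called (edgeR adjusted p 0.306).

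**Figure D5:**
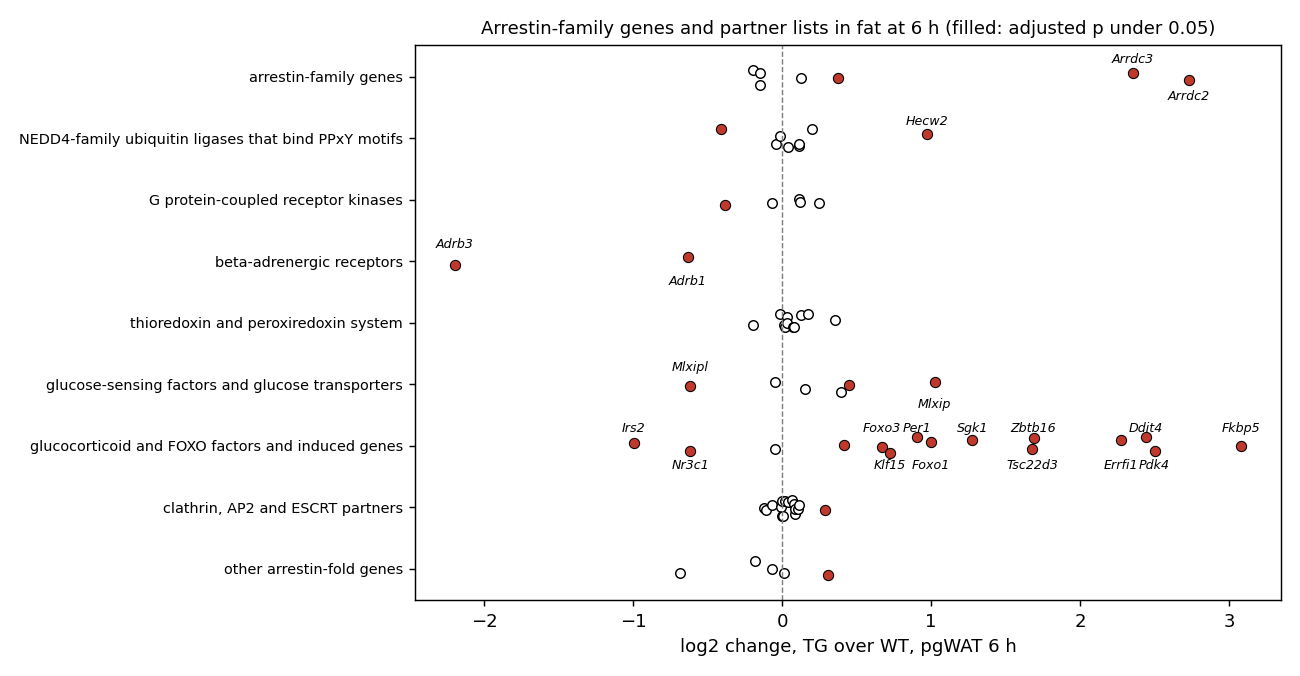
Log2 change of TG over WT in pgWAT at 6 h (x axis) for the arrestin-family genes and for tested genes of 8 lists of partners and regulators (rows, with vertical scatter for legibility only). Filled points passed an adjusted p under 0.05, and called genes beyond a log2 change of 0.6 in size are named. The arrestin-family row spans -0.20 to 2.73, Adrb3 lies at -2.20, and the row of glucocorticoid and FOXO genes reaches 3.08 with Fkbp5.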

How the data were processed

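RNA of quadriceps and pgWAT was made into QuantSeq 3′ FWD libraries per the labels' protocols, using a module with unique molecular identifiers (UMIs) for quadriceps and pgWAT at 1 h, and the standard kit at 6 h. STAR 2.7.10, cutadapt 1.18, UMI-tools 1.1.2 and bcl2fastq 2.20.0.422 were used on the builds GRCm38 and GRCm39, per the submitters' processing notes. The counting program, its strand setting, the build of each table and whether UMIs were collapsed are not given in the sources used here. Raw counts per gene, as whole numbers, are what the authors deposited. Rows that name no gene held a mean of 25.1% of counts in quadriceps, 34.7% in pgWAT at 1 h and 0.214% at 6 h, and were left out. Gene positions are those of GENCODE vM21 on GRCm38.

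Samples were grouped by title, also for TG quadriceps replicate 10, whose treatment entry names 1 h. Where nothing says that libraries come from separate animals, p-values measure only the spread between them. For each set, TG over WT was tested by edgeR 4.0.16 under R 4.3.3 (filterByExpr, TMM, robust quasi-likelihood fit, Benjamini-Hochberg over all genes, threshold 0.05), and differences between sets and between WT tissues in joint fits. SE is the log2 change over the root of the F value. CPM are counts over the TMM-scaled library total, brought to a common scale. Correlations used log2 CPM with a prior count of 2 and 100000 shuffles within groups, two-sided. The fits were tested on simulated data. Alternatives were size factors by RLE, library size alone, no filter on low counts, DESeq2 1.42.0, the replicate number as a block, the library number modulo 8 as a factor, leaving out libraries that stood apart, leaving out each library, and for correlations a prior count of 0.5 and Spearman's rho. The correlations over pgWAT alone were added after seeing the data.

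The members and lists were chosen with earlier results of these data known. Named were all members, up to 3 genes per list and set by smallest p among those called, and the 3 genes most like Arrdc3 and Txnip, without predicted genes. One gene of the lists enters the list totals but is not reported here.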

Additional observations from a re-analysis of the deposited data

Results flagged for a closer look

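The joint fits set the TG over WT difference of Arrdc2 and Arrdc3 against itself between sets. From 1 h to 6 h in pgWAT it grew by a log2 value of 2.76 for Arrdc2 and 2.05 for Arrdc3, and in quadriceps it was -2.59 and -2.08 relative to pgWAT at 6 h. These differences are built from contrasts known when the genes were chosen and are a description. Among 42 groups of library values, 1 held a library far from the rest, Arrdc2 in TG quadriceps, where replicate 3 had 86.0 CPM and the next library 54.4 CPM. The gap took 0.529 of the group's range, above the critical value of 0.466 for 10 libraries. Chance alone flags about 1 in 20 groups.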

How the results depend on the processing

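The calls of Arrdc2, Arrdc3 and Txnip in pgWAT at 6 h held under the 6 alternative settings and in the 12 fits that each left out 1 library. Over the settings the log2 changes were 2.66 to 2.73 for Arrdc2, 2.28 to 2.36 for Arrdc3 and 0.31 to 0.38 for Txnip, and without single libraries 2.65 to 2.81, 2.25 to 2.42 and 0.34 to 0.43. Scaling by library size alone left 31.3% of the calls at 6 h on the higher side, against 47.7% with TMM. The count of all genes called in pgWAT at 1 h, 8, was unstable: 19 with DESeq2, 5 without the filter on low counts, 3 with the library number as a factor, 1 without the libraries that stood apart, and 3 to 12 without single libraries. It was 3 without TG replicate 3 or WT replicates 1, 2 or 7, and 5 without TG replicates 1, 5 or 7 or WT replicates 4, 5 or 9. Called list genes at 1 h, 1 at first, were 2 with DESeq2 and 0 without the libraries that stood apart, where fewer samples were tested. Without those libraries 0 of 3 pairs of members varied together, against 1. Samples of the same replicate number did not deviate together: the correlation was over 0.1 in 3 of 10 pairs in quadriceps, 4 of 9 at 1 h and 1 of 6 at 6 h. With the replicate number as a block, 144, 5 and 1874 genes were called in the quadriceps, 1 h and 6 h sets, and the members called stayed at 0, 0 and 3. The sign of 14 values changed under at least 1 alternative, and in 13 of them no fit made a call. The exception was Txnip between WT quadriceps and WT pgWAT, which was -0.67 with library size alone, -0.13 without the libraries that stood apart, and -0.03 to 0.20 without single libraries (-0.0295 without WT quadriceps replicate 10, -0.0179 without WT pgWAT replicate 9 and -0.00719 without WT quadriceps replicate 9). The cause was not tested. Depth limits Arrdc1, Arrdc4 and Arrb2 in quadriceps and Arrdc2 in pgWAT at 1 h, where small differences were not detectable. For Arrdc2 at 1 h the log2 change without the filter was -0.07 with an SE of 0.29, an SE far below its change of 2.73 at 6 h.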

Other observations

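Correlations among all 7 genes were also computed over the 30 pgWAT libraries, 21 pairs in all, a choice made after seeing the data. With group means removed, 3 pairs passed with Pearson's r in a permutation test adjusted over the 21 pairs. Arrdc3 with Txnip had r 0.60 (permutation adjusted p 0.0253), Arrdc2 with Arrdc4 r 0.57 (permutation adjusted p 0.0155) and Arrdc2 with Arrb1 r -0.60 (permutation adjusted p 0.0253). With Spearman's rho none of these passed (permutation adjusted p 0.0596 for each), and without the libraries that stood apart none passed with Pearson's r. At 1 h Arrdc2 rested on 2 to 28 counts per library, so its correlations there carry much counting error. Within pgWAT at 6 h, where it was well counted, r was 0.15 for Arrdc2 with Arrdc4 and -0.15 for Arrdc2 with Arrb1. Arrb1 and Arrb2, with r 0.49 in pgWAT (permutation adjusted p 0.123), did not pass.

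Arrdc5, a further gene of the family in mouse, had 11 counts in 1 pgWAT library of the 1 h set and 0 counts in every other library.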
